A study of Mus musculus with 25 samples.

Results

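The genes described here are a set of 8 stress neuropeptide genes, chosen by symbol from the 23990 genes of the expression table, with earlier results of these data known. They are the peptide genes Crh and Adcyap1, the binding protein gene Crhbp, and the receptor genes Crhr1, Adcyap1r1, Oxtr, Npy1r and Oprk1. All 8 were found in the table, and all 8 had enough reads to be tested. The libraries were made from total RNA of the prefrontal cortex (PFC) in wild-type C57BL/6 mice aged 10 weeks. For each sex the study had mice stressed by social defeat under dihydrocaffeic acid/malvidin-glucoside, mice stressed under vehicle, and controls. Dosing with compounds or vehicle began 2 weeks ahead of social defeat, in which a mouse is exposed to an aggressor, and went on through it. Of the 25 samples in these 6 groups, 5 could be tied to columns by name, those of the stressed males given vehicle (replicates 1 to 5). The columns of the other 5 groups were not used here, so nothing below compares stress with control, compounds with vehicle, or the sexes. Tying the columns to samples takes a column's letter as a group and its number as a replicate.

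Corticotropin-releasing hormone (CRH) is the hypothalamic peptide that starts the hormonal stress response, and in the cortex it is made mainly by local inhibitory neurons. Pituitary adenylate cyclase-activating polypeptide (PACAP, the product of Adcyap1) is a related signal that acts in stress circuits of the brain. The receptors of both peptides couple mainly to stimulation of adenylyl cyclase, whereas the neuropeptide Y receptor Y1 and the kappa opioid receptor inhibit it and the oxytocin receptor acts mainly through phospholipase C. Binding protein, made by cortical inhibitory neurons among others, holds CRH away from its receptors.

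The mature peptides are cut from longer precursors, and the bases that encode them are shown because the 2 peptide genes differ in how many forms they can give. The stretch for CRH lies in exon 2 of 2 of Crh, at chr3:19693916-19694044 on the minus strand (GRCm38, GENCODE M21). It encodes 41 residues of a precursor of 187, and the capitals mark the codons of the signal at its end for cleavage and amidation. The stretch for PACAP lies in exon 5 of 5 of Adcyap1, at chr17:93203990-93204112 on the plus strand. It encodes 38 residues of a precursor of 175, and the first capitals mark the signal after residue 27, where the short form ends, and the second those after the long form.
Crh: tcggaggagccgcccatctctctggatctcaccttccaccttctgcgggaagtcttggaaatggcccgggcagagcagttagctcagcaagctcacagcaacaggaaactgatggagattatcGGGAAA
Adcyap1: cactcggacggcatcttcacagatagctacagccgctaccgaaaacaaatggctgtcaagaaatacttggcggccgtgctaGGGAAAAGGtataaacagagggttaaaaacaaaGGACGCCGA
The reads counted over a gene do not tell which peptide form was made.

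Levels are given as CPM, reads scaled to a fixed library size, for libraries of 34565147 to 44265039 reads. Nothing in the labels states that the libraries come from separate animals, so their spread may be technical. A chi-square test asked of each gene whether its reads differed between the 5 libraries by more than counting allows, with Benjamini-Hochberg adjustment over 19239 genes and a threshold of 0.05. It compares libraries of 1 group, not conditions. Reads are taken as independent, so if both reads of a pair were counted, the test calls too many genes. By this test 7 of the 8 stress peptide genes varied, against 74.4% of all genes tested. Among genes of at least 1 CPM the share was 81.5%, so that the count of 7 is near the background. The spread beyond counting error, as a coefficient of variation (CV), had a median of 16.0% over the 8 genes, 10.0% over all genes tested and 8.25% over the 14524 genes of at least 1 CPM.

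The CRH genes came first in the order of signalling. Crh, encoding CRH (chr3:19693401-19695396, minus strand), had 5.37, 5.28, 5.02, 5.86 and 4.35 CPM in replicates 1 to 5, from 173 to 224 reads. These values lay close together, with replicate 4 highest and replicate 5 lowest. The mean was 5.17 ± 0.553 CPM (SD, n = 5) and the CV beyond counting error 8.09%. Crh was the gene of the 8 that did not pass the chi-square test (adjusted p = 0.0784), and 48.8% of genes of at least 1 CPM had a lower CV. It passed without replicate 2 (adjusted p = 0.0458) or without replicate 3 (adjusted p = 0.0493) in the same chi-square test. Without replicate 5 its CV was 0%, so that the spread of Crh rested largely on that library.

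Crhbp, encoding the CRH binding protein (chr13:95431371-95444924, minus strand), had 25.5, 24.3, 25.5, 28.7 and 25.6 CPM. Replicate 4 stood above the other 4 libraries, which lay within 24.3 to 25.6 CPM. The mean was 25.9 ± 1.64 CPM (SD, n = 5), with a CV of 5.49%, the lowest of the 8 genes, and an adjusted p of 0.00836 in the chi-square test. Without replicate 4 the CV was 0% and the adjusted p of the chi-square test 0.689, so the call rested on that library. The call also takes each read as independent.

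Crhr1, encoding the main CRH receptor of the cortex (chr11:104132855-104175523, plus strand), had 17.0, 12.002, 8.18, 16.2 and 16.3 CPM. Replicates 1, 4 and 5 lay together, replicate 2 was lower and replicate 3 lowest, with 365 reads against 706 in replicate 1. The highest library had 2.08 times the level of the lowest, the widest span of the 8 genes. The mean was 13.9 ± 3.76 CPM (SD, n = 5), and the adjusted p of the chi-square test was 2.17e-35. The CV of 26.7% was above that of 94.4% of genes of at least 1 CPM. It was 14.2% without replicate 3, and the gene still passed. In bulk tissue, fewer cells of a type and less RNA per cell cannot be told apart.

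Set per length (RPKM, which divides CPM by exon length in kilobases), Crhbp exceeded Crh in 5 of 5 libraries, by 3.70 ± 0.370 times (SD, n = 5; range 3.38 to 4.32). The binding protein was thus the more abundant transcript in each library. The receptor gene Crhr1 was 1.46 ± 0.437 times Crh in RPKM (SD, n = 5), from 0.874 in replicate 3 to 2.01 in replicate 5. It was above Crh in 4 of the libraries and below it in replicate 3. The second CRH receptor gene, Crhr2, was low, with 1.06, 1.18, 1.43, 0.638 and 1.73 CPM. It varied by the chi-square test (adjusted p = 7.58e-04), and replicate 4, where it was lowest, was not low for Crhr1. Crhr1 exceeded it by 27.7 ± 15.9 times in RPKM (SD, n = 5; range 11.9 to 52.6), and by 15.8 ± 9.10 times over the longest transcripts (SD, n = 5). The other ligands of these receptors were near the floor of 3 reads (0.0673 to 0.0870 CPM), with 4 reads of Ucn (urocortin) in each of replicates 1 and 5 and 0 in the others, and at most 0.157 CPM of Ucn2. A value for Ucn3 is not given here.

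**Figure D1:**
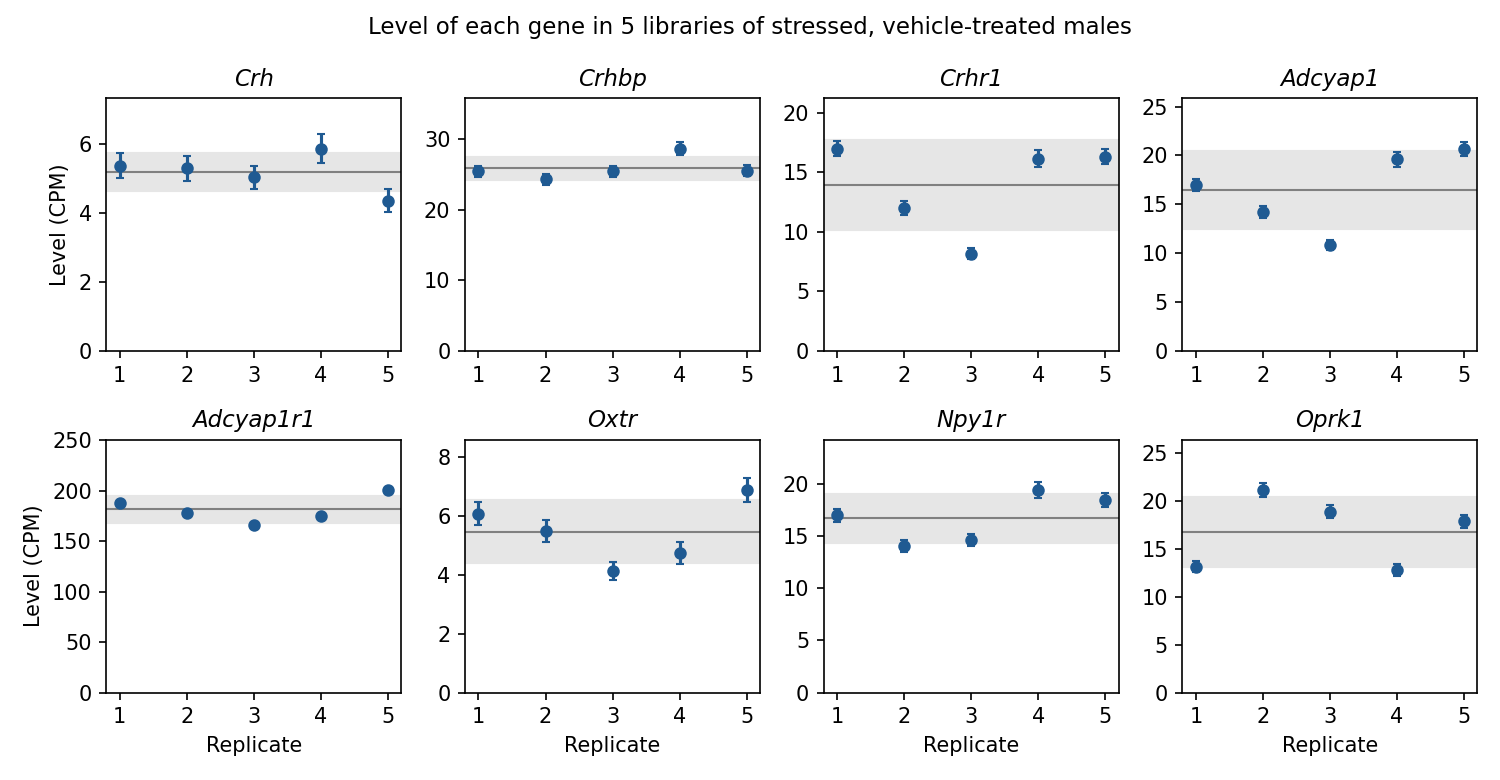
CPM of each of the 8 genes (vertical axes, from 0) in replicates 1 to 5 of the stressed, vehicle-treated males (horizontal axes), with points for libraries, bars of 1 counting error (the square root of the reads) and a line and grey band for the mean ± SD of 5 libraries. Crhr1 and Adcyap1 dip in replicate 3 (8.18 and 10.9 CPM), whereas Oprk1 is low in replicates 1 and 4 (13.1 and 12.8 CPM) and Crh and Crhbp stay within narrow bands.

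Among the PACAP genes the ligand was lower and varied more, and the receptor was the most abundant of the 8 genes. Adcyap1, encoding PACAP (chr17:93199017-93206537, plus strand), had 17.0, 14.2, 10.9, 19.6 and 20.7 CPM. Replicate 3 was lowest and replicate 5 highest. Its mean was 16.5 ± 4.01 CPM (SD, n = 5), with a CV of 24.1% and an adjusted p of 5.04e-33 in the chi-square test. Without replicate 3 the CV was 15.8%, still past the threshold.

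Adcyap1r1, encoding the PACAP receptor PAC1 (chr6:55451978-55501451, plus strand), had 188, 178, 166, 175 and 200.3 CPM. Replicate 3 was again lowest and replicate 5 again highest, but within a span of 1.21 times. With 6029 to 7976 reads per library its counting error was 1.18%, so the chi-square test called a CV of 7.15% (adjusted p = 9.47e-32). Its mean was 181 ± 13.1 CPM (SD, n = 5), and its RPKM was above 93.0% of the genes in the table. The receptor exceeded its ligand by 6.58 ± 1.45 times in RPKM (SD, n = 5), from 5.10 in replicate 4 to 8.75 in replicate 3.

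VIP, the closest relative of PACAP, and the receptors that both peptides share gave a scale for these values. Vip had 26.8, 21.4, 20.1, 35.1 and 28.0 CPM, lowest in replicate 3 as Adcyap1 was, and highest in replicate 4 (adjusted p = 4.29e-43, chi-square test; CV 22.6%). In RPKM it was 1.79 ± 0.227 times Adcyap1 (SD, n = 5), above it in 5 of 5 libraries. Vipr1, a receptor for both peptides, averaged 35.5 ± 2.89 CPM (SD, n = 5), and Adcyap1r1 exceeded it by 4.52 ± 0.612 times in RPKM (SD, n = 5). Vipr2, the other shared receptor, averaged 0.485 ± 0.147 CPM (SD, n = 5) and did not pass the chi-square test (adjusted p = 0.204). PAC1 was thus the leading receptor transcript of this family in each library.

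The promoter stretches of Crhr1 and Adcyap1 are shown because these genes had the largest CVs of the 8 and were both lowest in replicate 3. RefSeq (GRCm38.p6) gave stretches for 6 of the 8 genes, Crh and Oprk1 not among them, each with 250 bases before a start site and 50 after. The Crhr1 stretch is chr11:104132531-104132830, plus strand, with 75.0% G and C, against a median of 52.7% over 32851 promoters. The table holds 2 stretches for Adcyap1, and the one shown, at the downstream start site, is chr17:93198918-93199217, plus strand, with 45.7%. Capitals mark motifs found by letters on either strand, the GC box GGGCGG in Crhr1 and the cAMP response element core TGACG and the TATA box TATAAA in Adcyap1.
Crhr1: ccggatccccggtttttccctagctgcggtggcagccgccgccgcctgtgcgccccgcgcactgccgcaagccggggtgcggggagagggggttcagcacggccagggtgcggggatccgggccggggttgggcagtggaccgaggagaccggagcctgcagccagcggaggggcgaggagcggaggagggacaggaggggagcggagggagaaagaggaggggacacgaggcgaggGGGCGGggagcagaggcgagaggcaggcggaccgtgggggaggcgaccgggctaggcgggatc
Adcyap1: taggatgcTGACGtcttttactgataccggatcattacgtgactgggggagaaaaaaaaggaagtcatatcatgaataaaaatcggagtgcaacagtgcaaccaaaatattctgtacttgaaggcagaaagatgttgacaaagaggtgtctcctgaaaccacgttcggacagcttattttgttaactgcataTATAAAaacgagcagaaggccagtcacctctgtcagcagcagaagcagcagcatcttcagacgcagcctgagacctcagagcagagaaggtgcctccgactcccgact
The 2 stretches share none of these motifs. In this stretch TGACG lay 242 bases before the start site. The other Adcyap1 stretch, chr17:93198767-93199066, overlaps it and holds the same TGACG 91 bases before its own start site, with 2 matches of the CCAAT box on the minus strand and no TATA box match. The TGACG core is also found in the Crhbp stretch and in 20.8% of all promoters, and CCAAT in 37.4%. The full element TGACGTCA, which holds TGACG, was in none of the stretches of the 6 genes and in 1.79% of promoters. TATAAA, found in the stretch shown for Adcyap1 and in that of Crhbp, was in 13.6% of promoters, and GGGCGG, found in Crhr1, Adcyap1r1 and Oxtr, in 35.7%. The AP-1 motif TGANTCA was found in the Npy1r stretch and in 7.81% of promoters. The glucocorticoid response element, an inverted repeat to which the receptor of stress hormones binds, was in none of the 6 genes' stretches and in 0.475% of promoters. A match of letters is a description and shows no binding.

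The remaining receptor genes belong to other peptides. Oxtr, encoding the oxytocin receptor (chr6:112473683-112489943, minus strand), had 6.09, 5.49, 4.15, 4.76 and 6.88 CPM. Replicates 3 and 4 were low and replicate 5 high, from 164 to 274 reads. The mean was 5.47 ± 1.08 CPM (SD, n = 5), with a CV of 18.5% and an adjusted p of 1.50e-06 in the chi-square test. Its ligand gene Oxt had at most 0.174 CPM and Avp, encoding vasopressin, at most 0.0580 CPM, which is 6 reads of Oxt in each of replicates 2 to 5 and 0 in replicate 1, beside a floor of 3 reads. Both peptides are known as products of hypothalamic neurons. Avpr1a averaged 0.329 ± 0.196 CPM (SD, n = 5; adjusted p = 0.00193, chi-square test with all genes) and Avpr2 0.0902 ± 0.0615 CPM (SD, n = 5). A value for Avpr1b is not given here.

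Npy1r, encoding the Y1 receptor of neuropeptide Y (chr8:66697192-66706792, plus strand), had 17.0, 14.0, 14.6, 19.4 and 18.5 CPM. Replicates 2 and 3 were low and replicates 4 and 5 high. The mean was 16.7 ± 2.34 CPM (SD, n = 5), with a CV of 13.5% and an adjusted p of 1.20e-09 in the chi-square test. Npy, its ligand, had 91.1, 105, 119, 93.9 and 99.3 CPM (adjusted p = 5.78e-41, chi-square test), highest in replicate 3. Npy exceeded Npy1r by 38.1 ± 8.94 times in RPKM (SD, n = 5), the ligand far above the receptor, which is the reverse of the PACAP pair. Npy1r in turn exceeded Npy2r by 5.05 ± 0.611 times and Npy5r by 4.67 ± 0.567 times in RPKM (SD, n = 5 each). Npy2r, the presynaptic Y2 receptor, had 3.80, 2.59, 2.40, 3.89 and 3.82 CPM and was also low in replicates 2 and 3 (adjusted p = 4.97e-05, chi-square test). Npy5r, the Y5 receptor, averaged 2.64 ± 0.170 CPM (SD, n = 5) and did not pass the chi-square test (adjusted p = 0.819). Values for Pyy, Npy4r and Npy6r are not given here.

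Oprk1, encoding the kappa opioid receptor (chr1:5588466-5606131, plus strand), had 13.1, 21.1, 18.9, 12.8 and 17.9 CPM. Replicates 1 and 4 were low and replicate 2 was highest, so that replicate 3, low for Crhr1 and Adcyap1, was the second highest for Oprk1. The mean was 16.7 ± 3.66 CPM (SD, n = 5), with a CV of 21.5% and an adjusted p of 1.63e-24 in the chi-square test. Pdyn, encoding the precursor of its ligand dynorphin, had 15.9, 11.1, 9.48, 24.7 and 17.8 CPM, lowest in replicate 3 and highest in replicate 4 (adjusted p = 1.77e-74, chi-square test; CV 38.0%). In replicate 4 Pdyn was highest where Oprk1 was lowest, while in replicate 5 both were above their means. Pdyn over Oprk1 in RPKM had a mean of 3.28 ± 1.86 (SD, n = 5), with 1.59 in replicate 3 and 6.13 in replicate 4 at its ends.

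In RPKM the nociceptin receptor gene Oprl1 was 6.01 ± 1.52 times Oprk1, and the delta receptor gene Oprd1 4.64 ± 1.12 times (SD, n = 5 each). Oprk1 was 11.1 ± 1.57 times the mu receptor gene Oprm1 in RPKM (SD, n = 5), which averaged 1.32 ± 0.160 CPM (SD, n = 5) and did not pass the chi-square test (adjusted p = 0.600). Among the other opioid precursors Penk (enkephalin) averaged 35.6 ± 4.31 CPM, Pnoc (nociceptin) 5.71 ± 0.957 CPM and Pomc 1.92 ± 0.240 CPM (SD, n = 5 each). Penk varied (adjusted p = 2.59e-17, chi-square test), as did Pnoc (adjusted p = 3.32e-04), while Pomc did not pass (adjusted p = 0.361). These ratios depend on the length used. Over the longest transcripts Oprl1 was 3.71 ± 0.937 times, Oprd1 2.37 ± 0.572 times and Pdyn 2.03 ± 1.15 times Oprk1, and Oprk1 was 6.51 ± 0.925 times Oprm1 (SD, n = 5 each). At either length the kappa receptor transcript stood below those of Oprl1 and Oprd1 and above Oprm1 in 5 of 5 libraries.

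**Figure D2:**
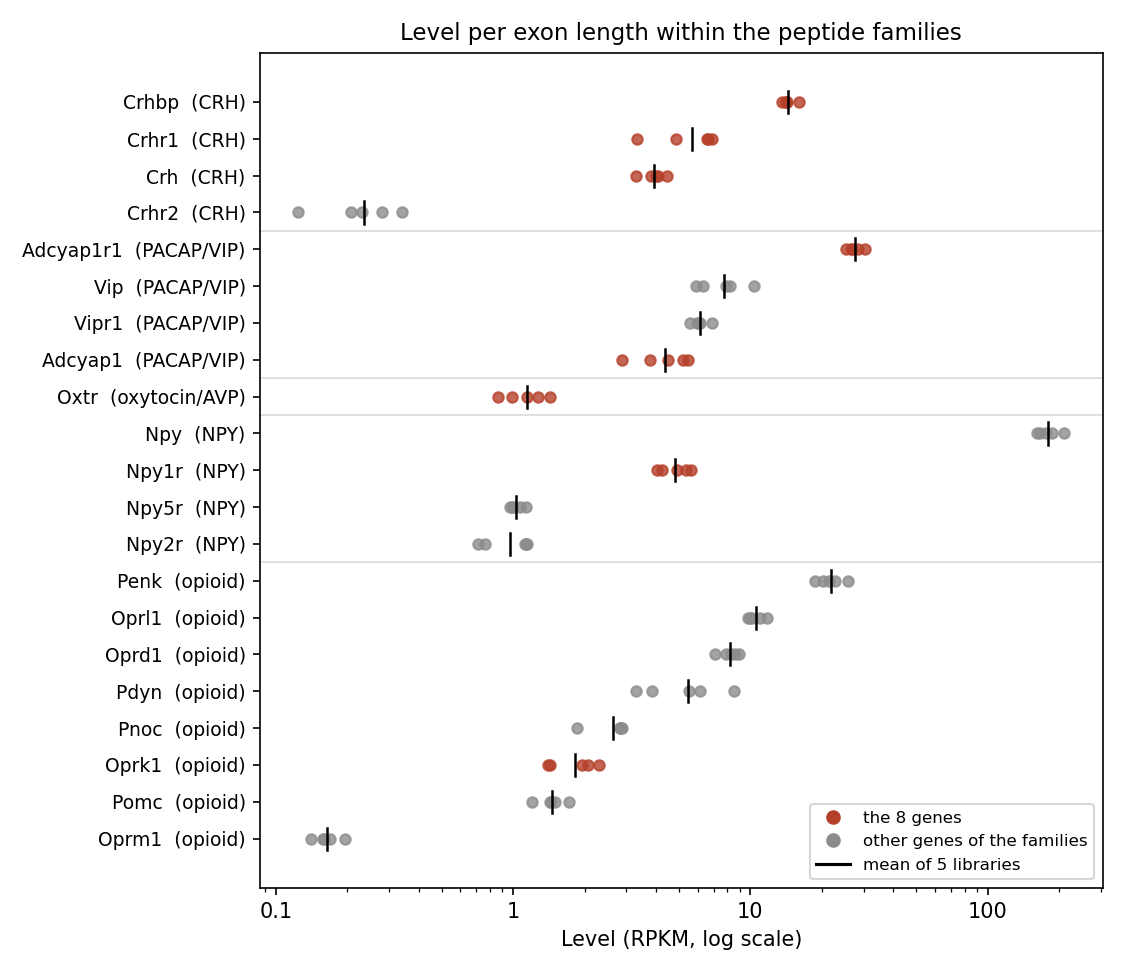
RPKM on a log axis (horizontal) of the 8 genes (red) and of their families' other genes of at least 1 CPM (grey), in rows by family, with a point for each of the 5 libraries and a line at the mean. Adcyap1r1 (mean 27.5 RPKM) stands above its ligand Adcyap1 (4.36 RPKM), whereas Npy (179.6 RPKM) stands above its receptor Npy1r (4.83 RPKM).

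Per length, the order of the 8 genes was Adcyap1r1 (27.5 ± 1.99 RPKM), Crhbp (14.4 ± 0.910 RPKM), Crhr1 (5.66 ± 1.53 RPKM), Npy1r (4.83 ± 0.677 RPKM), Adcyap1 (4.36 ± 1.06 RPKM), Crh (3.92 ± 0.419 RPKM), Oprk1 (1.83 ± 0.399 RPKM) and Oxtr (1.14 ± 0.225 RPKM), each with SD and n = 5. The first 2 stood clear of each other and of the rest. Crhr1, Npy1r, Adcyap1 and Crh formed a run in which each neighbour's range overlapped the next. Crhr1 was above Npy1r in 4 libraries, Npy1r above Adcyap1 in 4, and Adcyap1 above Crh in 3. Oprk1 and Oxtr overlapped over all libraries but kept their order in 5 of 5. The level of Oprk1 depended on the length used, with 3.58 RPKM over its longest transcript of 4675 bases, against 1.83 RPKM over all its exons of 9151 bases. Its mean kept its place at both, but its separation from Crh did not hold. Over all exons Oprk1 was below Crh in 5 of 5 libraries with no overlap, whereas over the longest transcripts, a length chosen after seeing the data, it was below Crh in 2 of 5 libraries, with 2.74 to 4.51 RPKM against 3.29 to 4.44 RPKM for Crh. At that length Oprk1 and Oxtr no longer overlapped.

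The libraries did not rank alike from gene to gene. Replicate 3 was the lowest for Crhr1, Adcyap1, Adcyap1r1 and Oxtr, and replicate 2 for Crhbp and Npy1r. Replicate 4 was the highest for Crh, Crhbp and Npy1r and the lowest for Oprk1. Replicate 5 was the highest for Adcyap1, Adcyap1r1 and Oxtr and the lowest for Crh. On the log2 scale, with each gene centred on its own mean, Crhr1 lay at -0.72 and Adcyap1 at -0.56 in replicate 3, where Oprk1 lay at 0.20. As a measure of likeness, the largest difference between 2 centred profiles over the 5 libraries was 0.26 log2 for Crhr1 and Adcyap1. It was 0.17 for Crhbp and Npy1r, the closest of the pairs, and 0.92 for Crhr1 and Oprk1, the farthest. These are descriptions of 5 libraries that share their scaling, and no correlation is given with fewer than 6.

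Markers of cell types moved between the same libraries. The summed level of 7 oligodendrocyte markers was 7293, 6325, 8985, 4119 and 4209 CPM in replicates 1 to 5, and 7 of 7 were highest in replicate 3. The summed level of 8 excitatory neuron markers was 5616, 5756, 5414, 6496 and 6130 CPM, lowest in replicate 3, with Cux2, a gene of upper cortical layers, at 54.6, 36.8, 24.1, 76.4 and 54.1 CPM. Replicate 3, where the oligodendrocyte sum was highest, was the lowest library for 4 of the 8 genes and the second highest for Oprk1. The 10 inhibitory neuron markers summed to 989, 1035, 1061, 1099 and 1042 CPM, a narrower range for the sum only. Its members did not move together, and 9 of the 10 varied by the chi-square test. Lamp5 was highest in replicate 4, with a CV of 49.2%, whereas Sst was lowest there, with a CV of 14.5%. Of the 10 markers, 4 were highest in replicate 4. The 6 striatal projection neuron markers summed to 165 to 226 CPM, highest in replicate 3. Leptomeningeal markers, 6 in number, summed to 21.7 to 65.1 CPM, and 6 of 6 were highest in replicate 4. The excitatory neuron, inhibitory neuron, endothelial and choroid plexus sums were also highest in replicate 4, the library that set the call of Crhbp. The 5 hypothalamic markers summed to 0.740 to 1.57 CPM, with Agrp at most 1.36 CPM and Avp, Oxt, Hcrt and Pmch near 0, in the same libraries in which Crh had 4.35 to 5.86 CPM. Summed levels were 844 to 1026 CPM for 4 astrocyte markers, 226 to 262 CPM for 4 microglial markers and 170.2 to 202 CPM for 4 endothelial markers. Sums of 4 choroid plexus markers were 1.62 to 3.02 CPM and of 3 olfactory bulb markers 3.83 to 4.50 CPM. The part of these markers in the values of the 8 genes was not tested, except that the neuronal sum was also used for scaling. Camk2a (mean 3402 CPM, CV 12.5%, lowest in replicate 3) and Slc17a7 (mean 1926 CPM) were the largest parts of that sum. With reads scaled to the sum of the 18 neuronal markers, a setting chosen after seeing the data, the CV was 24.8% for Crhr1, 19.8% for Adcyap1, 24.4% for Oprk1 and 8.82% for Npy1r, and all of these passed the chi-square test. Crhbp did not pass (adjusted p = 0.109) and Crh did (adjusted p = 0.0497) by that chi-square test.

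**Figure D3:**
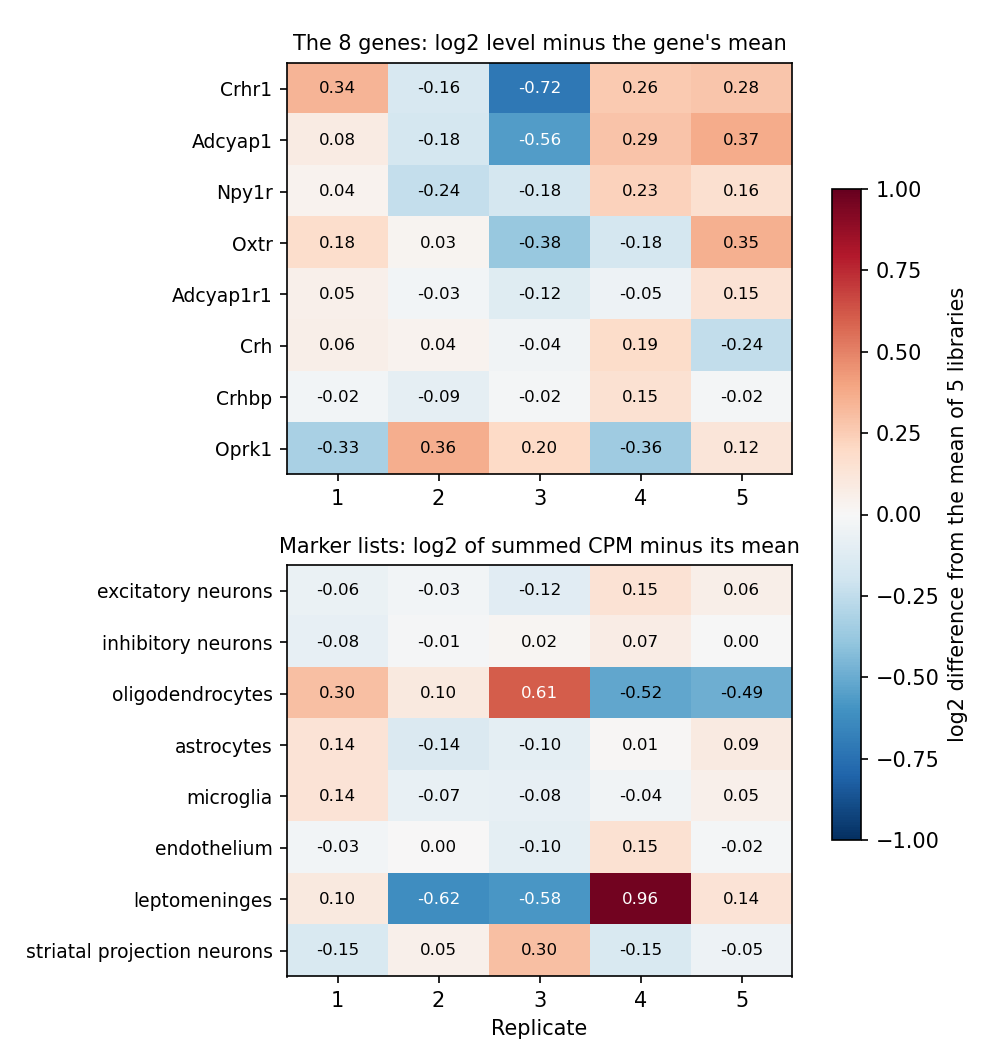
Difference of each gene's log2 level from its mean over 5 libraries (upper panel, 8 genes in rows) and of the log2 summed CPM of each marker list from its mean (lower panel), in replicates 1 to 5 (columns), printed in each cell and coloured from blue (below the mean) to red (above). In replicate 3 Crhr1 lies at -0.72 and Adcyap1 at -0.56 while the oligodendrocyte sum lies at 0.61.

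**Figure D4:**
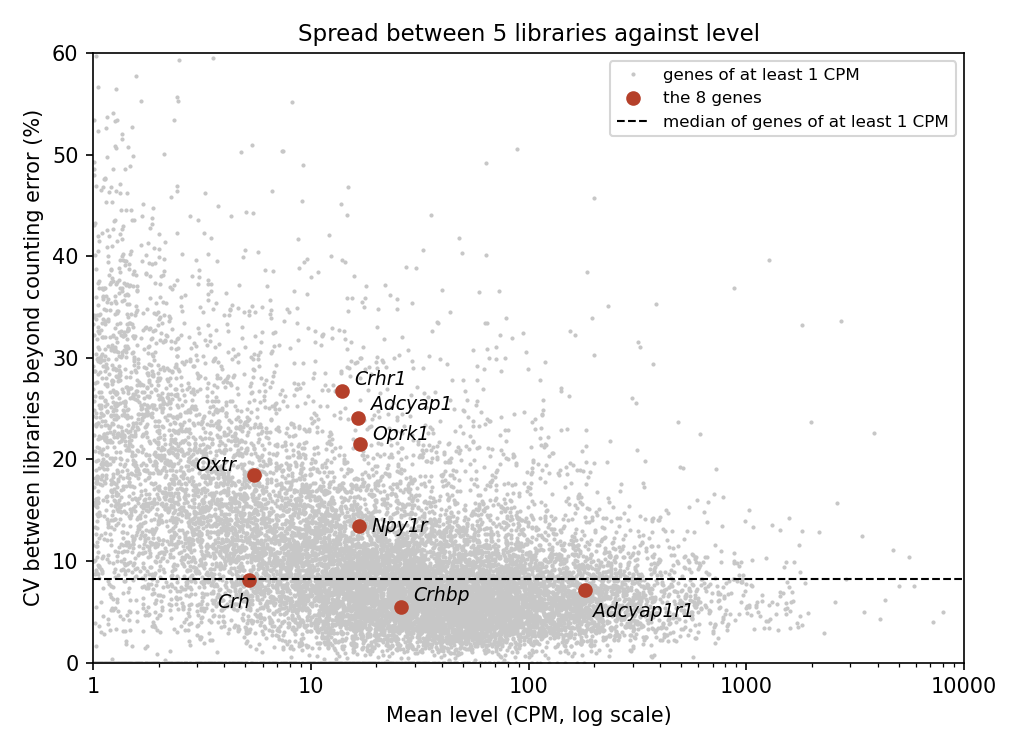
CV between libraries beyond counting error in percent (vertical) against mean CPM on a log axis (horizontal) for genes of at least 1 CPM (grey) and the 8 genes (red), with a dashed line at the median of 8.25%; 28 genes above 60% and 1 gene past the right end of the axis are not drawn. Crhr1, Adcyap1 and Oprk1 lie among the more variable genes of their level, and Crhbp, Adcyap1r1 and Crh at or below the median.

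For each of the 7 genes that varied, the closest of 9871 other genes of at least 10 CPM (9872 for Oxtr) were named by the same measure of likeness. For Crhr1 these were Rreb1, at a largest log2 difference of 0.18, and Wfs1, at 0.20, and no gene lay within 0.1. For Adcyap1 they were Trpc6, at 0.10, and Synpr, at 0.12, again with none within 0.1. For Oprk1 they were Tmsb10, at 0.14, and Nrp1, at 0.15, with none within 0.1. Among the genes compared, the profiles of these 3 genes thus had no match within 0.1. Oxtr was closest to Hap1 (0.09) and Ypel1 (0.09), with 2 genes within 0.1, and Npy1r to Hpgds (0.03) and Nhsl1 (0.04), with 22. Flat profiles had many near matches, with 1025 genes within 0.1 of Crhbp (Ppp1r7 and Virma closest, at 0.01 and 0.02) and 457 of Adcyap1r1 (Ugdh and Optn closest, both at 0.01).

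The machinery around these peptides was read from 79 listed genes, of which 74 were in the table and 68 could be tested. In all 61 varied, or 89.7%, with a median CV of 8.18%, near the 81.5% and the median of 8.25% of all genes of at least 1 CPM (74.4% of all genes tested). The counts by list below are to be read against these shares. Peptide precursors are cut and trimmed by proteases and amidated before release. Of 6 such processing genes 6 varied, with Cpe, the carboxypeptidase that trims peptide ends, at the highest CPM, 2280 ± 65.8 CPM (SD, n = 5). Pam, the amidating enzyme, had the largest CV of these, 13.0%, and a mean of 176 ± 22.8 CPM (SD, n = 5), and like Adcyap1 it was lowest in replicate 3 and highest in replicate 5. Of 26 genes for G proteins, adenylyl cyclases and cAMP targets 24 varied. Adcy1, a calcium-stimulated adenylyl cyclase, had the highest CPM of them, 1286 ± 55.6 CPM (SD, n = 5), and Crtc2, a coactivator of CREB, the most variable at a CV of 15.6%. Crem (adjusted p = 0.0554) and Atf1 (adjusted p = 0.0538), transcription factors of the CREB family, did not pass the chi-square test. All 8 genes of receptor desensitisation varied, with Arrb1, a beta-arrestin, at the highest CPM, 438 ± 10.0 (SD, n = 5), and Rgs4, which shortens G protein signals, at the largest CV, 21.8%.

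Of 13 tested genes for other peptide receptors 12 varied, against 74.4% of all genes tested and 81.5% of those of at least 1 CPM. Of the 13, 12 had at least 1 CPM. Ntsr2, a neurotensin receptor, had the highest CPM, 87.1 ± 8.55 CPM (SD, n = 5), and Mc4r, a melanocortin receptor, the most variable at a CV of 34.3%. Mc4r had 1.78, 1.57, 2.06, 1.22 and 3.06 CPM, highest in replicate 5 as were Adcyap1, Adcyap1r1 and Oxtr. The median CV over these receptors was 12.1%, and Crhr1, at 26.7%, and Oprk1, at 21.5%, lay above it, whereas Npy1r, at 13.5%, was close to it.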

How the data were processed

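Total RNA of PFC was sequenced. Mapping and counting used STAR 2.6.1d, SAMtools 1.9, featureCounts, Subread 1.6.3 and edgeR among the tools that the submitters' processing notes name, and the builds they name are mm10 and GRCm38. Strandedness, the gene filter and the release of the annotation: not given in the sources used here. The deposited values are log2, and the numbers themselves show their form, log2 of reads plus 0.5, relative to a scaled library size. Taking the lowest value of each column as 0 reads turned 100% of a library's values into whole numbers within 1e-06 reads. Reads and CPM were computed back from them with Python 3.11.15 (pandas 2.3.3, numpy 2.4.6, scipy 1.17.1), and plots were made with matplotlib 3.10.9.

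Columns were matched to samples by name, which gave 5 libraries of 1 group. Another 20 columns could not be matched and were not used, so comparisons between groups were not run. Totals were 34565147 to 44265039 reads, and 3 reads correspond to 0.0673 to 0.0870 CPM. Floors and the chi-square test (4 degrees of freedom, mean of 5 reads or more) cover counting error only, since PCR copies are not told apart. Each read is taken as independent. Several low genes had even read counts in every library, such as 66, 72, 88, 78 and 76 for Pomc and 74, 60, 92, 42 and 122 for Mc4r. Whether both reads of a pair were counted was not tested. If they were, counting error is larger than given here and fewer genes would pass. The CV beyond counting error is the square root of the variance between libraries left after the variance that counting gives, as a percent of the mean, and 0 where none is left. The test was also run on simulated data with independent reads, and its outcome is not reported here. RPKM divides CPM by the union length of a gene's exons (GENCODE M21, GRCm38), which also gave the coordinates, and 23846 of 23990 identifiers had a symbol. No other GENCODE gene overlaps any of the 8 genes on either strand. Promoter stretches are from RefSeq.

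The genes named are the 8 members, all genes of their peptide families, the gene of highest CPM (not per length) and the most variable gene of each other list, and the 2 genes closest to each member that varied. Cux2, Lamp5, Sst, Camk2a, Slc17a7, Agrp, Hcrt, Pmch, Crem and Atf1 were named after their values were seen. Gnai3 and Gnao1 were named because a library of theirs stood apart. The members and lists were chosen with earlier results of these data known. Alternatives were other scalings (total reads, median of ratios), other read minimums, leaving out each replicate, and, chosen after seeing the data, scaling to neuronal markers and the length of the longest transcript.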

Additional observations from a re-analysis of the deposited data

Results flagged for a closer look

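In 5 of 73 genes checked (the 8 genes and their related genes of at least 1 CPM) the highest or lowest library lay far from the other 4, by a gap of more than 0.71 of the whole range. Chance gives about 1 in 20 such genes, or 3.65 here.

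Crhbp was one of them, with 28.7 CPM in replicate 4 against 24.3 to 25.6 CPM in the others, a gap of 0.713 of the range. Pnoc, the nociceptin precursor, had 4.00 CPM in replicate 4 against 6.10 to 6.18 CPM, a gap of 0.963 of the range. Rgs4, a regulator of G protein signalling, had 327 CPM in replicate 4 against 208 to 216 CPM, a gap of 0.931 of the range. Gnai3, an inhibitory G protein subunit, had 27.5 CPM in replicate 2 against 33.6 to 35.5 CPM, a gap of 0.755 of the range. Gnao1, the main G protein subunit of brain, had 769 CPM in replicate 5 against 725 to 735 CPM, a gap of 0.760 of the range.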

How the results depend on the processing

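Scaling to total reads, median-of-ratios scaling, a minimum mean of 20 reads and no minimum gave 7 of the 8 genes varying, and scaling to neuronal markers 7, while leaving out single replicates gave 6 to 8. The number of varying genes in the table was 14293, 14303, 12693 and 15862 under the first 4 of these settings, and 12646 to 13125 with 1 replicate left out, against 14308. The order of mean RPKM of the 8 genes was kept under each alternative. Over the longest transcripts, however, Oprk1 was no longer separated from Crh. Adcyap1r1, Crhr1, Adcyap1, Oxtr, Npy1r and Oprk1 passed the test under every alternative run, and their CVs went from 4.93% (Adcyap1r1) to 30.4% (Crhr1) with 1 replicate left out. Crhbp did not pass without replicate 4 or with neuronal scaling, and Crh passed without replicate 2, without replicate 3 and with neuronal scaling. The cause was not tested. No paired analysis was possible because the columns of only 1 group could be matched to samples. At their mean reads, counting error was 6.99% for Crh and 6.79% for Oxtr, which limits what spread can be seen. It was larger in libraries with fewer reads, such as replicate 4 with 164 reads of Oxtr.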
